A study of Mus musculus with 18 samples.

Results

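The interleukin-1 (IL-1) family genes of mouse bone marrow-derived macrophages (BMDMs) were followed across 3 genotypes of miR-146a, with and without lipopolysaccharide (LPS). The members were the rows of the protein-coding count table with the gene names Il1a, Il1b, Il1rn, Il18, Il18bp, Il1r1, Il1r2, Il1rap, Il1rl2 and Il33. All 10 were found among 21734 genes, and 9 of them stood among the 11357 genes with enough counts to be tested. Il33 was too low. RNA without ribosomal RNA was sequenced in 18 directional libraries, 3 biological replicates in each of 6 groups. BMDMs came from wild-type mice (WT), mice homozygous for a deletion of miR-146a (KO) and mice homozygous for 3′F miR-146a, a non-seed swap in which the 3′ part of the mature miRNA was exchanged with its opposite strand in the hairpin. By the labels, all mice were a 129/B6 mix 6 to 7 months of age (the study's methods give a younger age for the mice of its BMDM proteome lysates), and all marrow was grown for 8 to 9 days in M-CSF at 10 ng/ml before fresh medium without LPS (resting) or with LPS at 1 ng/ml for 16 h. KO and 3′F are each a single allele made in V6.5 embryonic stem cells and kept as a separate colony, so other differences between the colonies cannot be told apart from the alleles. Per the study's methods, each line was backcrossed 3 times to C57BL6/J, and wild-type controls were drawn in equal parts from both lines. The authors noted no phenotypic differences between wild-type mice of the lines. The sample titles do not give the line of each WT library. The count table lists protein-coding genes, so miR-146a itself was not checked here.

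IL-1α (Il1a) and IL-1β (Il1b) are agonists that bind the receptor IL-1R1 (Il1r1), which then recruits the accessory protein IL-1RAcP (Il1rap) and signals through MyD88 and the IRAK kinases. The same route is used downstream of TLR4, the receptor for LPS. The family is held in check by soluble and decoy proteins. IL-1Ra (Il1rn) occupies the receptor without activating it, IL-1R2 (Il1r2) binds IL-1 but does not signal, and IL-18 binding protein (Il18bp) captures IL-18 (Il18). IL-36 receptor (Il1rl2) takes the IL-36 cytokines, and IL-33 (Il33) is an alarmin best known from epithelial and stromal cells. Macrophages are a main source of IL-1β and IL-18, both of which are made as precursors and cut by caspase-1, whereas miR-146a is known as a brake on MyD88-dependent signalling.

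The sequences of miR-146a are shown because the genotypes differ only in them by design. The mature mouse strand lies on the minus strand of chromosome 11 (chr11:43374435-43374456, GRCm38.p6, RefSeq), and its seed, bases 2 to 8, is in capitals. Below it is the strand of the study's synthetic 3′F mimic, without its overhang, with the bases that differ in capitals.
miR-146a-5p: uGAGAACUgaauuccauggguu
3′F mimic strand: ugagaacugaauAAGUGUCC
The first 12 bases were shared, the seed among them, and all 8 bases from position 13 to 20 differed. Of the 10 members, 1 carried a match to the seed of at least 7 bases in its longest annotated 3′ UTR, against 19.3% of 20805 genes with an annotated 3′ UTR. That member was Il1r2, the decoy receptor, with a match of the 8mer kind (4.38% of genes hold one) on the plus strand at chr1:40123216-40123239, shown with the matching bases in capitals.
Il1r2 seed match: gcctcgaatccacggAGTTCTCAg
Both alleles share the seed that this site pairs with. A match is a description of the letters, and no regulation was measured through it.

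Levels are given as CPM, counts per 1000000 counts of the scaled library total, as mean ± SD over 3 libraries, and differences as log2 fold changes with their SE. Calls are genes with adjusted p below 0.05 in the edgeR quasi-likelihood test, with Benjamini-Hochberg adjustment over all 11357 genes tested. Library totals ran from 4071084 to 19818043 counts, and the shallowest library was resting 3′F replicate 3. Macrophage identity was checked with 9 marker genes, none of which was at 0 in any library. Their summed level was 32615 to 88413 CPM, mostly Lyz2 (26451 to 75140 CPM). Summed neutrophil markers reached 18.9 to 69.6 CPM, mostly Mmp8, with Ly6g at 0 in 14 of 18 libraries. Their sum was higher in resting KO (51.6 to 69.6 CPM) than in resting WT (29.1 to 38.2 CPM). Of the 10 markers, however, 3 to 6 were at 0 in a resting KO library and 1 in each resting WT library. The part of this sum in the results on resting KO was not tested. The summed markers of dendritic cells, T and NK cells, B cells, stromal cells and mast cells stayed at or below 11.5 CPM in every library, and those of endothelium at or below 33.9 CPM. Resting KO replicate 3 stood apart. Its summed level of 8 interferon-induced genes was 6677 CPM, against 351 and 234 CPM in resting KO replicates 1 and 2, 42.1 to 115 CPM in resting WT and 1605 to 8526 CPM in WT with LPS. For the comparisons that use resting KO, calls and counts below that change without that library are also given without it. Other comparisons were not refitted with that library alone left out. In bulk RNA, fewer cells making a transcript and less transcript per cell cannot be told apart.

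Among the 9 tested members, LPS raised the IL-1 agonists most. Resting WT BMDMs had next to no Il1a (ENSMUSG00000027399, chr2:129299610-129309972, minus strand), at 0.328, 0.0753 and 0.290 CPM in replicates 1 to 3, and with LPS they had 12.0, 9.28 and 20.1 CPM. The 9 resting counts of Il1a in WT, summed over libraries, set the precision of this fold. Il1b (ENSMUSG00000027398, chr2:129364570-129371139, minus strand) stood at 2.17, 1.51 and 11.3 CPM in resting WT and at 112, 53.4 and 122 CPM with LPS. Every LPS library was above every resting library for both genes, also within KO and within 3′F. The log2 fold change of Il1a with LPS was 5.84 ± 0.57 in WT (57.2-fold, adjusted p 2.16e-06), 6.15 ± 0.49 in KO (71.1-fold) and 5.61 ± 0.55 in 3′F (48.7-fold). For Il1b it was 4.33 ± 0.77 in WT (20.1-fold, adjusted p 0.000593), 5.22 ± 0.77 in KO (37.3-fold) and 3.60 ± 0.75 in 3′F (12.2-fold). Il1a and Il1b were called in all 3 genotypes, and in each of the leave-one-out fits. The size of the fold depended on single resting libraries. The log2 rise of Il1b was 5.69 in WT without resting WT replicate 3 and 4.68 in 3′F without resting 3′F replicate 3, and that of Il1a was 4.89 in 3′F without resting 3′F replicate 2.

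Il18 (ENSMUSG00000039217, chr9:50554827-50581840) was already present in resting WT, at 6.57, 4.44 and 7.35 CPM, and reached 12.6, 9.41 and 24.6 CPM with LPS. Its log2 rise was 1.35 ± 0.44 in WT (2.54-fold, adjusted p 0.0311) and 1.46 ± 0.46 in 3′F (2.76-fold, adjusted p 0.0238). The call in WT was lost without WT LPS replicate 3 or without any 1 of the resting WT libraries, with adjusted p up to 0.201. In 3′F it was lost without 3′F LPS replicates 1 or 2 or resting replicate 1, with adjusted p up to 0.0773. In KO the libraries overlapped, with resting values of 12.7, 11.1 and 43.5 CPM and LPS values of 28.9, 29.0 and 29.3 CPM. The resting library at 43.5 CPM was replicate 3. Without it the log2 rise of Il18 in KO was 1.29 ± 0.29 (adjusted p 0.00276).

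The antagonists rose alongside. Il1rn (ENSMUSG00000026981, chr2:24336853-24351494) was at 30.1, 51.5 and 66.5 CPM in resting WT and at 391, 182 and 505 CPM with LPS. Its log2 fold change was 2.87 ± 0.42 in WT (7.30-fold, adjusted p 0.00011), 2.51 ± 0.41 in KO (5.70-fold) and 2.89 ± 0.42 in 3′F (7.43-fold), and no resting library reached an LPS library of its genotype. Il18bp (ENSMUSG00000070427, chr7:102014885-102018690, minus strand) went from 3.02, 3.46 and 5.70 CPM to 16.2, 9.76 and 24.5 CPM in WT, a log2 rise of 2.07 ± 0.47 (4.20-fold, adjusted p 0.00389). In 3′F its libraries were tight, at 4.34, 4.23 and 4.20 CPM resting and 14.0, 14.2 and 13.1 CPM with LPS, a log2 rise of 1.69 ± 0.48 (3.22-fold, adjusted p 0.0145). In KO the resting values of 6.80, 6.42 and 27.9 CPM overlapped those with LPS, 26.0, 23.5 and 19.9 CPM. Without resting KO replicate 3, the one at 27.9 CPM, Il18bp rose in KO by 1.81 ± 0.30 on the log2 scale (adjusted p 0.00021).

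The receptors were scarcer. Il1r1 (ENSMUSG00000026072, chr1:40225080-40317257) stood at 0.394, 0.753 and 0.387 CPM in resting WT and at 3.49, 2.66 and 3.30 CPM with LPS, a 6.03-fold rise (log2 2.59 ± 0.68, adjusted p 0.00948), and it rose 6.72-fold in 3′F (log2 2.75 ± 0.70, adjusted p 0.00745), or by 2.14 on the log2 scale without resting 3′F replicate 1. In KO its resting libraries held 0.803, 0.841 and 5.50 CPM against 4.61, 2.75 and 5.56 CPM with LPS. Without resting replicate 3 the log2 rise in KO was 2.38 ± 0.45 (adjusted p 0.000664). Il1rl2 (ENSMUSG00000070942, chr1:40324610-40367562), the IL-36 receptor, rose in all 3 genotypes without overlap, 2.96-fold in WT (log2 1.57 ± 0.22, adjusted p 9e-05), 2.32-fold in KO and 3.89-fold in 3′F. In WT it went from 4.40, 4.37 and 3.58 CPM to 14.4, 9.62 and 12.8 CPM. Il1rap (ENSMUSG00000022514, chr16:26581704-26730117), the shared accessory chain, moved least, from 9.72, 13.2 and 9.57 CPM to 19.1, 15.01 and 22.9 CPM in WT, a 1.75-fold rise (log2 0.81 ± 0.27, adjusted p 0.0366). That call held in 2 of 6 leave-one-out fits, those without WT LPS replicate 2 or resting replicate 2, with adjusted p of 0.027 to 0.149 over the 6. In 3′F the Il1rap libraries did not overlap but the adjusted p was 0.0703 (log2 0.69 ± 0.28). In KO its values overlapped, and without resting replicate 3 the log2 rise was 1.20 ± 0.18 (adjusted p 6.03e-05).

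Il1r2 (ENSMUSG00000026073, chr1:40074079-40125231), the decoy receptor with the seed match shown above, was near the limit of detection. It had 2, 0 and 2 counts in resting WT and 22, 7 and 4 counts with LPS. In 3′F it had 2, 0 and 4 counts at rest and 23, 20 and 4 with LPS. It was called in WT (log2 2.79 ± 1.01, adjusted p 0.0498) and in 3′F (log2 2.68 ± 0.93, adjusted p 0.0391), and held in 1 and 2 of 6 leave-one-out fits, with adjusted p up to 0.280 and 0.168. In WT it held without LPS replicate 3, and in 3′F without LPS replicate 3 or resting replicate 3. The log2 rise was 1.82 in WT without LPS replicate 1, and in 3′F 1.799 without resting replicate 2 and 4.09 without resting replicate 3. In KO it had 5, 3 and 7 counts at rest and 14, 12 and 10 with LPS, and its log2 difference was 1.04 ± 0.80 (adjusted p 0.366), or 1.61 ± 0.91 (adjusted p 0.191) without resting replicate 3. Summed over libraries and scaled for depth, the ratio of LPS to resting was 7.52 in WT (exact 95% interval 2.67 to 29.2), 2.16 in KO (1.15 to 4.25) and 7.75 in 3′F (3.31 to 22.2), intervals that cover counting error only. Il33 (ENSMUSG00000024810, chr19:29925114-29960718) had 0 counts in 17 libraries and 3 counts, 0.699 CPM, in resting 3′F replicate 3, so no Il33 was detectable at this depth in the other libraries, which allows up to 3 counts in each.

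**Figure D1:**
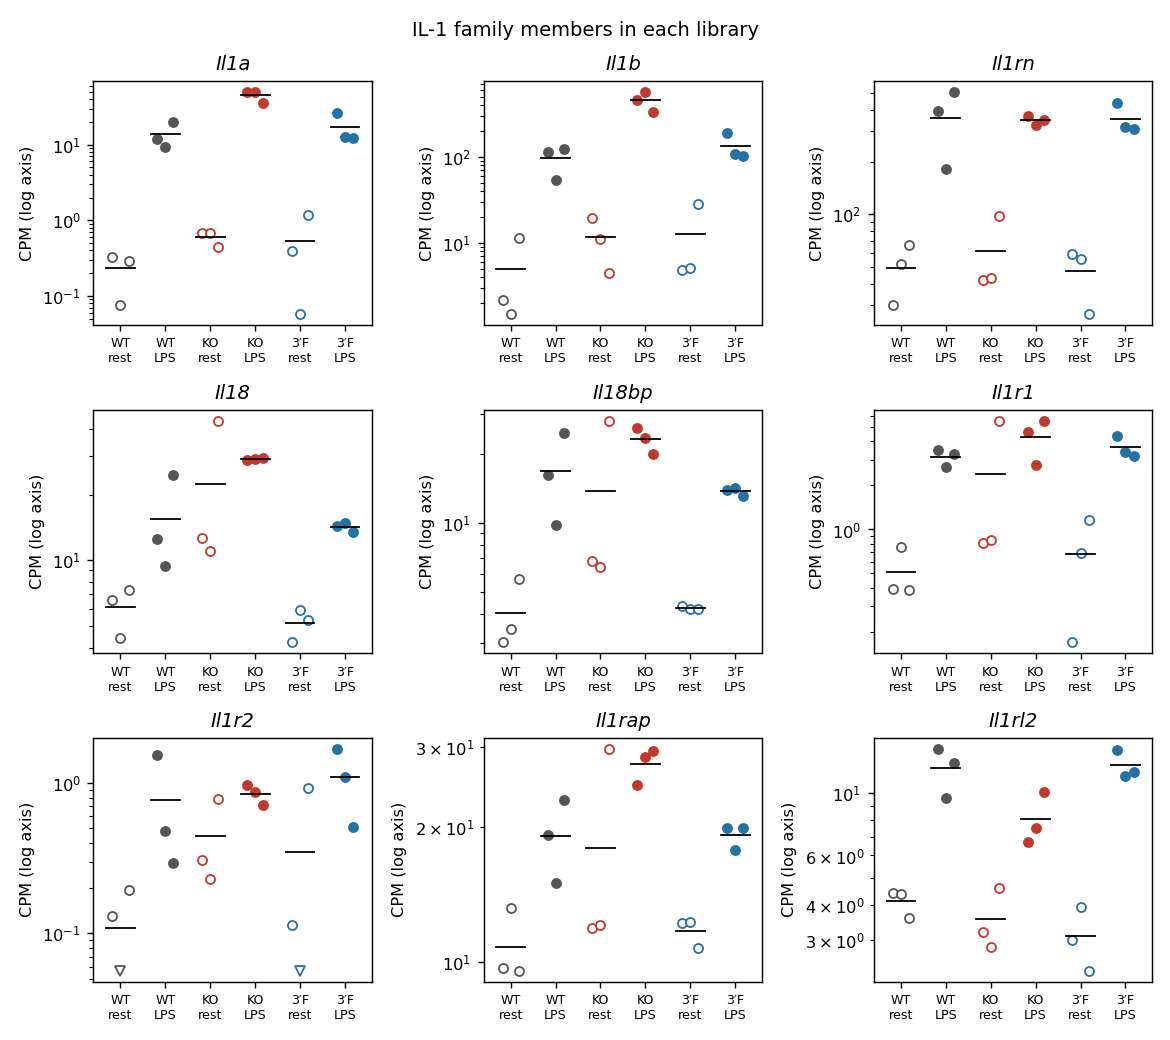
Level of the 9 tested members in each of the 18 libraries, in CPM on a log axis, by genotype (WT grey, KO red, 3′F blue) and state (open resting, filled LPS). Bars are means over 3 libraries, and triangles at the lower edge of the Il1r2 plot stand for 0 counts. Il1a and Il1b with LPS were highest in the 3 KO libraries, and 1 resting KO library lay far above the other two for Il18, Il18bp, Il1r1 and Il1rap.

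With LPS, 9 of 9 members were called higher in WT, where 28.5% of all genes tested were called in either direction. In KO 4 of 9 were called higher (Il1a, Il1b, Il1rn and Il1rl2) against 26.9% of all genes, and in 3′F 8 of 9, all but Il1rap, against 31.2%. The median log2 fold change over the 9 members was 2.59 in WT, 1.04 in KO and 2.68 in 3′F, and that of all genes 0.02, 0.02 and −0.01. The count in KO turned on resting replicate 3. Without it 8 of 9 members were called higher in KO, all but Il1r2, against 35.2% of all genes, with a member median of 1.81.

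**Figure D2:**
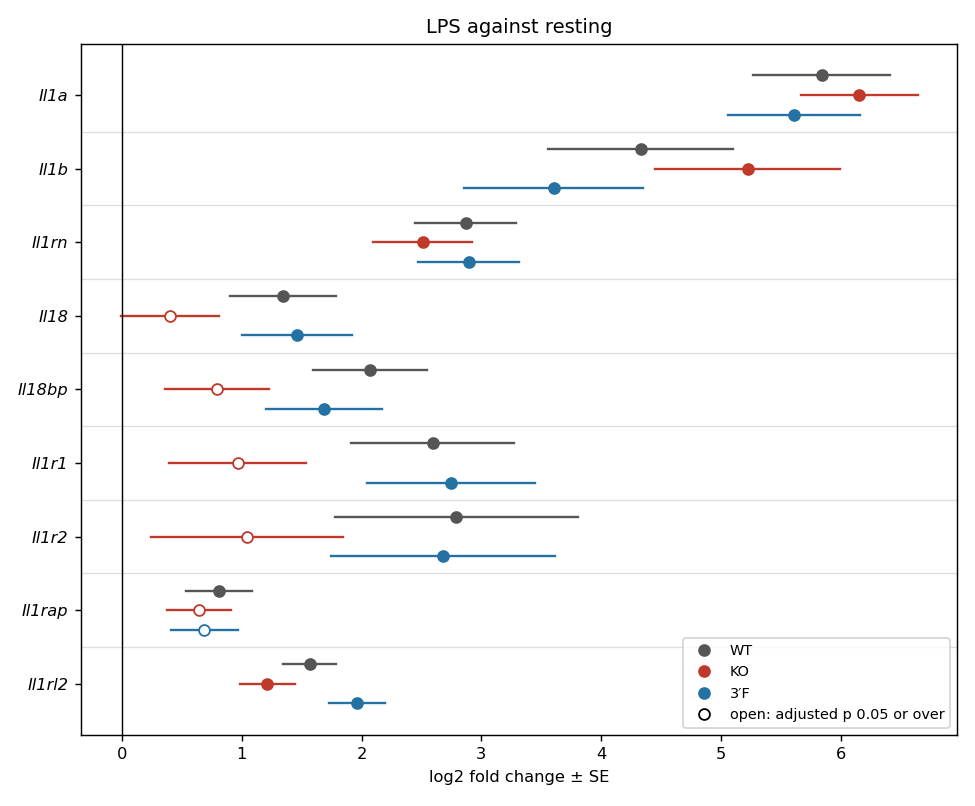
Log2 fold change of each tested member with LPS against resting, with SE, in WT, KO and 3′F. Filled points have an adjusted p under 0.05. Il1a and Il1b lie furthest to the right, and the open KO points for Il18, Il18bp, Il1r1, Il1r2 and Il1rap lie left of the WT points.

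Per kb of exon, which allows genes to be set beside each other, Il1rn had the highest mean in 5 of the 6 groups. The exon lengths are those of the count table, and the order under other annotated lengths was not tested. In resting WT Il1rn stood at 18.2 ± 6.75 CPM per kb, above Il18 at 5.93 ± 1.46 with no overlap, whereas the libraries of Il18 and of Il1b (3.68 ± 4.04) overlapped. Il1rn overlapped with the next member, Il18, in resting KO, and with Il1b in resting 3′F. With LPS, Il1rn was at 133 ± 60.5 CPM per kb in WT and 132 ± 26.9 in 3′F, and Il1b followed at 70.7 ± 27.4 and 97.5 ± 35.0, each overlapping with Il1rn. KO with LPS had another order. There Il1b stood first, at 333 ± 85.0 CPM per kb, above Il1rn at 128 ± 7.76 in every library. Il18 (28.2 ± 0.19), Il1a (22.8 ± 4.01) and Il18bp (7.65 ± 1.02) came next in KO with LPS, none of them overlapping with its neighbour. Il1r1, Il1r2 and Il33 took the last 3 places in every group except resting KO, where Il1a stood between Il1r1 and Il1r2.

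KO exceeded WT with LPS in the IL-1 agonists. Il1a stood at 49.6, 49.7 and 35.9 CPM in the 3 KO libraries with LPS against 12.0, 9.28 and 20.1 CPM in WT, means of 45.1 ± 7.92 and 13.8 ± 5.62. All KO values were above all WT values, by 3.27-fold (log2 1.71 ± 0.34, adjusted p 0.00965). The call was lost in 1 of 6 leave-one-out fits, without WT LPS replicate 2, where the adjusted p was 0.0663. Il1b stood at 458, 562 and 332 CPM in KO and at 112, 53.4 and 122 CPM in WT. The lowest KO library was 2.72 times the highest WT library, and the log2 difference was 2.23 ± 0.66 (4.70-fold), but its adjusted p of 0.0639 did not pass. The SE of this difference was larger than that for Il1a.

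Il1rn did not follow them. It stood at 366, 325 and 351 CPM in KO with LPS and at 391, 182 and 505 CPM in WT, a log2 difference of −0.05 with a 95% interval from −0.87 to 0.77. That interval leaves out the difference seen for Il1a. Il18 with LPS was 28.9 to 29.3 CPM in KO, above the 9.41 to 24.6 CPM of WT without overlap (log2 0.91 ± 0.41, adjusted p 0.253), and Il1rap was 24.7 to 29.5 CPM in KO against 15.01 to 22.9 CPM (log2 0.54 ± 0.27, adjusted p 0.306). Il18bp, Il1r1, Il1r2 and Il1rl2 overlapped between KO and WT with LPS. In all, 1 of 9 members was called, Il1a, where 4.79% of all genes were, and the member median was 0.46 against 0.01 for all genes. In WT with LPS, replicate 2 had the lowest level of Il1a, Il1b, Il1rn, Il18 and Il18bp and the lowest interferon sum (1605 CPM), and replicate 3 the highest of each (8526 CPM), and the part of that spread in these results was not tested.

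Against 3′F with LPS, KO was again higher in Il1a. The 3′F libraries held 26.4, 12.8 and 12.2 CPM, all below KO, a difference of 2.62-fold (log2 1.39 ± 0.34, adjusted p 0.0316). This call held in 2 of 6 leave-one-out fits and was lost without KO LPS replicates 1 or 2 or 3′F LPS replicates 2 or 3, with adjusted p up to 0.156. Il1b was 187, 108 and 102 CPM in 3′F with LPS, below all KO libraries (log2 1.77 ± 0.65, adjusted p 0.159). Il18 (log2 1.03, adjusted p 0.198), Il18bp (0.75, adjusted p 0.425) and Il1rap (0.53, adjusted p 0.343) were also higher in every KO library, and Il1rl2 was lower in every KO library (6.68, 7.53 and 10.1 CPM against 14.3, 11.6 and 11.9, log2 −0.63, adjusted p 0.113). Only Il1a was called among the 9, where 3.88% of all genes were. This count depended on the fit. With the compared groups alone, 6 were called (Il1a, Il1b, Il18, Il18bp, Il1rap and Il1rl2), where 1661 of 10916 genes were. KO against WT and KO against 3′F share the KO libraries and are not independent of each other.

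The ratio of antagonist to agonist within a library does not depend on library scaling. The level of Il1rn per kb divided by the sum of Il1a and Il1b per kb was 1.63, 1.53 and 1.87 in WT with LPS, 0.373, 0.273 and 0.493 in KO and 1.08, 1.36 and 1.41 in 3′F. KO was thus below 1 in 3 of 3 libraries and WT and 3′F above 1 in 3 of 3. Where a ratio lies against 1 depends on the exon lengths of the count table, and other lengths were not tested. The log2 difference was −2.18 between KO and WT, −1.79 between KO and 3′F and −0.39 between 3′F and WT, with no overlap in any of the 3 pairs, and each had a two-sided exact permutation p of 0.1, the smallest that 3 against 3 allows. At rest the ratio overlapped between all genotypes, at 6.31, 16.6 and 2.90 in WT, 1.05, 1.84 and 10.3 in KO and 5.81, 5.35 and 0.467 in 3′F. The extreme values came from resting KO replicate 3 (10.3) and resting 3′F replicate 3 (0.467).

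For IL-18, Il18bp per kb was below Il18 per kb in all 18 libraries. That order depended on the exon lengths of the count table. Without them Il18bp was above Il18 in WT LPS replicate 1 (16.2 against 12.6 CPM) and below it in resting WT replicate 1 (3.02 against 6.57 CPM). With LPS the ratio was 0.439, 0.353 and 0.340 in WT, 0.307, 0.276 and 0.231 in KO and 0.332, 0.327 and 0.331 in 3′F. Every KO value was below every WT and 3′F value (log2 −0.48 and −0.29). Every 3′F value was also below every WT value (log2 −0.18). The two-sided exact permutation p was 0.1 for each of the 3 pairs, the smallest possible. Il1b exceeded Il1a per kb in every library, by 8.37 to 16.5 times with LPS. Il1r1 per kb was below its partner Il1rap in every library, at 0.0195 to 0.260 of it at rest and 0.136 to 0.311 with LPS.

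**Figure D3:**
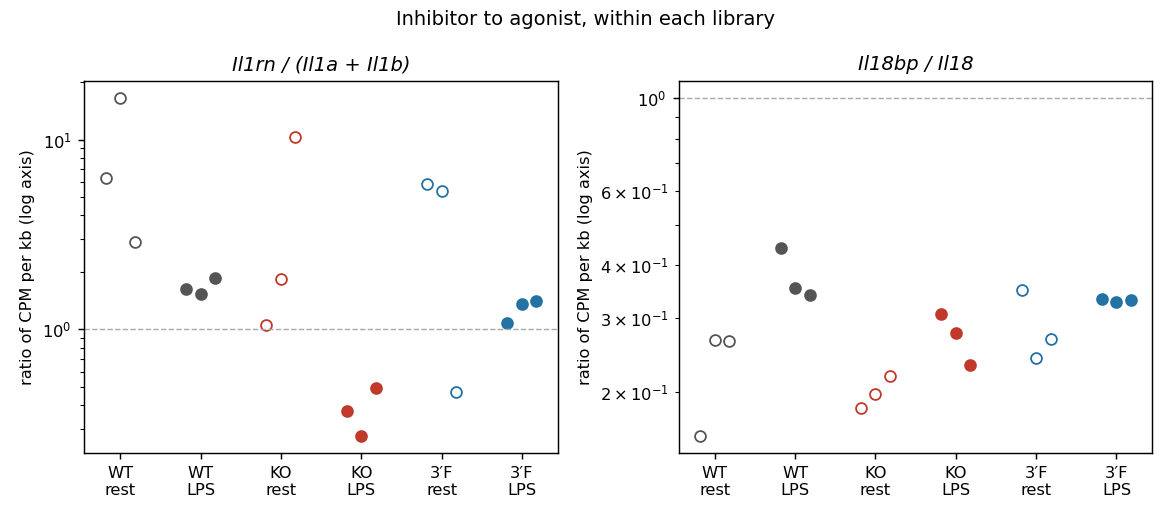
Ratio of inhibitor to agonist within each library, from CPM per kb of exon, on log axes, by group, with resting libraries open and LPS libraries filled. The dashed line marks equal levels per kb. For Il1rn over Il1a plus Il1b, the 3 KO libraries with LPS lie at 0.273 to 0.493 while WT and 3′F with LPS lie at 1.08 to 1.87.

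At rest, KO differed from WT in the IL-18 pair. Il18 stood at 12.7, 11.1 and 43.5 CPM in KO against 6.57, 4.44 and 7.35 CPM in WT, a log2 difference of 1.85 ± 0.44 (3.62-fold, adjusted p 0.0156). Il18bp stood at 6.80, 6.42 and 27.9 CPM against 3.02, 3.46 and 5.70 CPM (log2 1.74 ± 0.48, 3.34-fold, adjusted p 0.0321). Neither pair of groups overlapped. These 2 of 9 members were called, where 9.4% of all genes were, and the member median was 1.40 against 0.02. Il1r1 (log2 2.08, adjusted p 0.0807), Il1r2 (1.88, adjusted p 0.345) and Il1a (1.40, adjusted p 0.356) were also higher in every KO library, without passing the test. Resting Il1b was 19.6, 11.2 and 4.49 CPM in KO and 2.17, 1.51 and 11.3 CPM in WT, and overlapped, as did Il1rn, Il1rap and Il1rl2.

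Resting KO replicate 3 carried much of the size of these differences. Among the resting KO libraries it had the highest Il18, Il18bp, Il1r1, Il1r2, Il1rap, Il1rl2 and Il1rn, at 1.52 to 6.69 times the mean of the others, and the lowest Il1a and Il1b. Without it no member was called by edgeR between resting KO and WT, where 7.03% of genes were, and the member median was 0.73. Il18 was then at a log2 difference of 0.97 ± 0.30 (adjusted p 0.0678), Il18bp at 0.73 ± 0.32 (adjusted p 0.195) and Il1r1 at 0.67 ± 0.55 (adjusted p 0.553). The calls of Il18 and Il18bp were also lost without resting WT replicate 1 or 2, with adjusted p for Il18 of up to 0.08 over the 6 leave-one-out fits, while without resting KO replicate 1 there were 4 calls, Il1r1 and Il1rap added.

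Against resting 3′F the same members were called in KO, where 12.9% of all genes were. Il18 in 3′F was 4.23, 5.97 and 5.36 CPM, below all KO libraries (log2 2.09 ± 0.46, adjusted p 0.0102). For Il18bp the 3′F libraries were at 4.20 to 4.34 CPM (log2 1.64 ± 0.49, adjusted p 0.0371). Il18 remained called in all 6 leave-one-out fits, and without resting KO replicate 3 it differed by 1.21 (adjusted p 0.03) while 7.99% of genes were called. Il18bp was lost there, and without each of the resting 3′F libraries, with adjusted p up to 0.209.

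**Figure D4:**
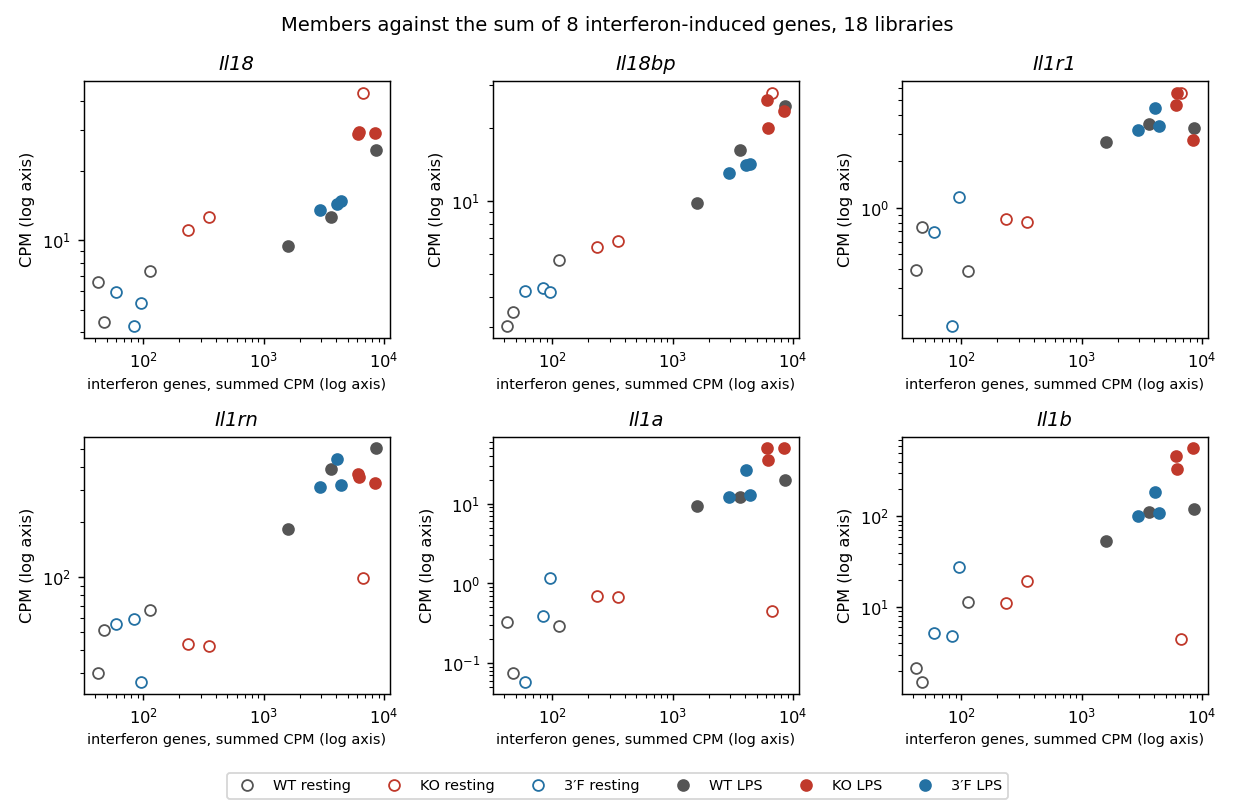
Level of 6 members (CPM, log axis) against the summed CPM of 8 interferon-induced genes (log axis) in the 18 libraries, with resting libraries open and LPS libraries filled. Resting KO replicate 3, at 6677 CPM on the horizontal axis, lies above every LPS library for Il18 and Il18bp. It lies among the LPS libraries for Il1r1 and among the resting libraries for Il1a and Il1b. The points share their libraries, and the plot is a description with no test.

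3′F did not separate from WT in any member. At rest 0 of 9 members and 0% of all genes were called by edgeR, with 557 genes at an unadjusted p under 0.05, and DESeq2 called 0 members. With LPS 0 of 9 members were called by either tool, where 0.00881% of all genes, 1 gene, were called by edgeR and 106 genes had an unadjusted p under 0.05. The libraries of 3′F and WT overlapped for every tested member in both states. With LPS, Il1a was at 17.1 ± 8.03 CPM in 3′F and 13.8 ± 5.62 in WT, a log2 difference of 0.32 with a 95% interval from −0.41 to 1.05. That interval ends below the 1.71 by which KO exceeded WT. The 95% interval of the KO difference, 0.98 to 2.44, overlaps it, and both differences share the WT libraries. For Il1b the means were 132 ± 47.5 and 95.8 ± 37.1 CPM, a log2 difference of 0.47 with a wider interval, from −0.89 to 1.82. For Il1rn the difference was −0.01 (−0.84 to 0.81). Failing the test does not show equal levels, and for Il1r2 the interval with LPS ran from −0.92 to 2.05.

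**Figure D5:**
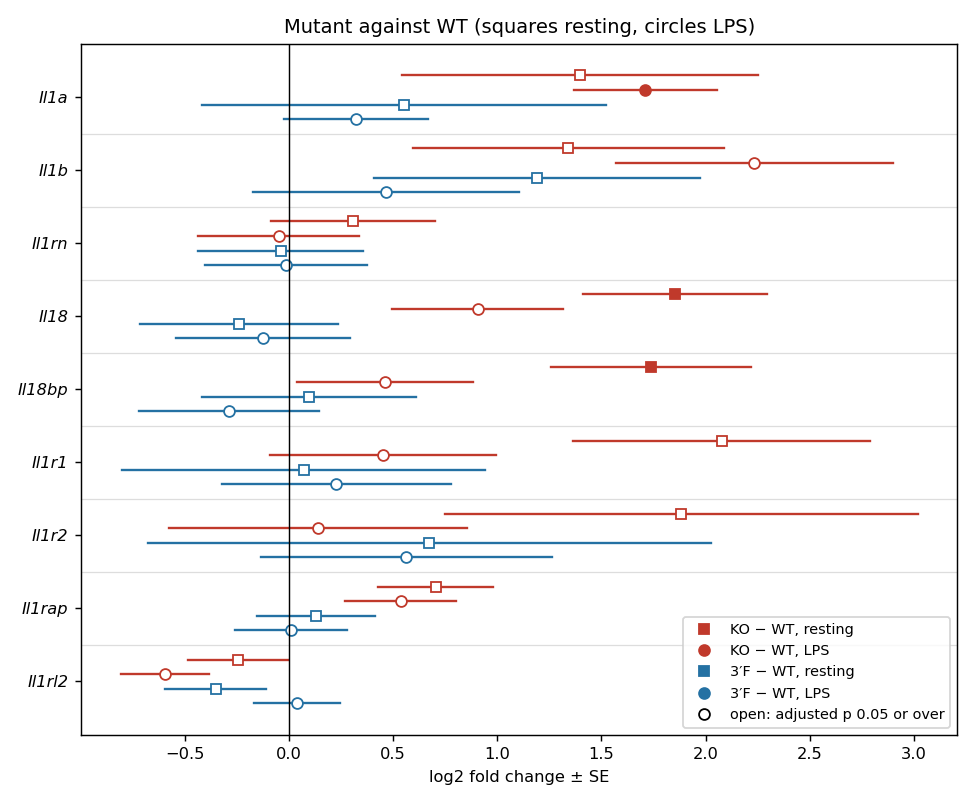
Log2 fold change of KO (red) and 3′F (blue) against WT for each tested member, with SE, resting as squares and with LPS as circles. Filled symbols have an adjusted p under 0.05, which Il1a with LPS and Il18 and Il18bp at rest have in KO and no member has in 3′F.

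Whether the LPS response itself differed between genotypes was tested by interaction. No member was called for KO against WT, where 0.00881% of all genes were (1 gene, with 560 at an unadjusted p under 0.05), nor for 3′F against WT, where 0% were (203 genes at an unadjusted p under 0.05), and DESeq2 called no member in either. The largest estimates were in KO, where the responses of Il1r2 (log2 −1.75), Il1r1 (−1.63) and Il18bp (−1.28) were smaller than in WT. Without resting KO replicate 3 they were −1.19, −0.21 and −0.27, and without WT LPS replicate 1 that of Il1r2 was −0.78. For Il1a the interval of the KO interaction ran from −2.04 to 2.66, and for Il1b from −1.20 to 2.98.

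Other genes of the pathway were read from 4 lists. Of 5 further ligands in the table, Il1f6 (IL-36α) and Il1f9 (IL-36γ) had enough counts, and both were called higher with LPS in all 3 genotypes. Il1f9 had 0 counts in resting WT and 86 over the 3 WT libraries with LPS, at least 26.1-fold higher when resting WT is set at 3 counts over the group. In KO its ratio was 13.5 (exact 95% interval 5.54 to 42.8), from 5 resting counts. For Il1f6, with 46, 53 and 60 counts with LPS in WT, KO and 3′F, resting KO and 3′F had 0 counts, which gives folds of at least 15.9 and 19.8. Il1f8 and Il1f10 had 0 counts in all libraries, and Il1f5 at most 2 in any. With Il1rl2 rising as well, both these IL-36 agonists and their receptor were higher with LPS in each genotype.

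Among 6 other receptors 3 were tested, and Il1rl1 (ST2, the receptor of IL-33) was the one that changed. Il18rap and Sigirr were not called in any comparison. Il1rl1 fell with LPS, from 2.84 ± 0.69 to 1.22 ± 0.51 CPM in WT (log2 −1.22 ± 0.36, adjusted p 0.0195), from 1.17 ± 0.43 to 0.307 ± 0.109 CPM in KO (−1.86 ± 0.47) and from 2.52 ± 0.78 to 0.719 ± 0.188 CPM in 3′F (−1.83 ± 0.39). It was lower in KO than in WT both at rest (log2 −1.31 ± 0.37, adjusted p 0.0371) and with LPS (−1.96 ± 0.46, adjusted p 0.0238), and lower than in resting 3′F (−1.21, adjusted p 0.0442). Without resting KO replicate 3 the resting difference was −1.48 from WT (adjusted p 0.0422) and −1.40 from 3′F (adjusted p 0.0513), so that the call against 3′F was lost. Its counts were low, 3 to 54 in a library.

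Of 11 receptor-proximal signalling genes, 3 were called higher with LPS in WT and the same number in KO, namely Irak3 (IRAK-M, an inhibitory IRAK), Myd88 and Irak2, and 4 in 3′F with Tab2 added. None fell. These shares are near those of all genes called with LPS (28.5%, 26.9% and 31.2%). Irak3 rose most, by 2.69 ± 0.20 in WT, 2.65 ± 0.20 in KO and 3.10 ± 0.20 in 3′F on the log2 scale. In KO against WT, Irak3, Myd88 and Irak2 were called higher at rest, and Irak3 (log2 0.67, adjusted p 0.0495) and Irak2 (0.70, adjusted p 0.0487) with LPS. In these comparisons 9.4% and 4.79% of all genes were called. Without resting KO replicate 3, Irak2 alone was called at rest, against 7.03% of all genes. Against resting 3′F, KO was higher in Irak3, Myd88, Irak2 and Irak4, a count of 4 that was 2 without resting KO replicate 3, and with LPS in Irak4 (log2 0.71, adjusted p 0.0489). The shares of all genes called were 12.9%, 7.99% and 3.88% in turn. Irak1 and Traf6, the established targets of miR-146a, were not called in any comparison.

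Of 13 genes for processing and release of IL-1β and IL-18, LPS moved 9 up and 2 down in WT, 6 up and 1 down in KO, and 7 up and 2 down in 3′F, where 28.5%, 26.9% and 31.2% of all genes were called. Without resting KO replicate 3 the KO counts were 9 up and 1 down, with 35.2% of all genes called. Mefv (pyrin) rose most, by 3.75 ± 0.42 in WT, and Casp4 (caspase-11, 2.18), Casp1 (1.56), Nlrc4 (1.00) and Nlrp3 (0.98) were called higher in each genotype. Dfna5 (gasdermin E) fell in each genotype (WT −1.47) and Nlrp1b fell in WT and 3′F. In KO against WT 5 were called higher at rest (Mefv, Gsdmd, Casp4, Ninj1 and Nlrc4) and 1 with LPS, where 9.4% and 4.79% of all genes were. Without resting KO replicate 3 the resting calls were Mefv, Nlrp3, Ninj1 and Nlrc4, with 7.03% of all genes called. Nlrc4, an inflammasome sensor, was the one called with LPS, at 49.4 ± 7.68 CPM in KO and 32.2 ± 0.44 in WT (log2 0.62 ± 0.12, adjusted p 0.00839), and it was also above 3′F with LPS (log2 0.49, adjusted p 0.0356). Against resting 3′F, KO was higher in Mefv, Ninj1 and Nlrc4, and without resting KO replicate 3 in Nlrp3, Ninj1 and Nlrc4 (Mefv adjusted p 0.0733). Of all genes, 12.9% and 7.99% were called there, and 3.88% in KO against 3′F with LPS.

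The promoters of Il1a and Il1b are shown because the 2 members with the largest LPS response share a feature there. The stretch of 60 bases before each RefSeq start (GRCm38.p6, minus strand, chr2:129309973-129310032 for Il1a and chr2:129371140-129371199 for Il1b) is given in the direction of the gene, with the letters TATAAA in capitals.
Il1a promoter: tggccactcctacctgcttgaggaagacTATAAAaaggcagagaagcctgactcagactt
Il1b promoter: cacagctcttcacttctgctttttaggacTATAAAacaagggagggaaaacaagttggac
The first T stood 32 bases before the start in Il1a and 31 in Il1b. TATAAA was searched on the gene's strand in the 50 bases before each start, and 3 of 14 windows of the 10 members held it, the third being 1 of the Il33 windows, against 2.63% of 32851 windows of all genes. In the 250 bases before the start, the interferon-response core (GAAA, any 2 bases, GAA, on either strand) was in 0 of the 14 windows and in 7.13% of all. The κB consensus, read on either strand as GGG, a purine, any 2 bases, 2 pyrimidines and CC, was in 1 of 14, 232 bases before a start of Il1r1, and in 7.25% of all. These are matches of letters in short windows, and binding was not measured.

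The genes most like each member in their group means were named by the root-mean-square difference of centred log2 CPM over the 6 groups, for members whose means spanned at least 2 on that scale. Il1a was closest to Marco (0.16), Nos2 (0.31) and Adora2a (0.33), and Il1b to Nos2 (0.40), Serpinb2 (0.44) and Il1a (0.45). Il1rn was closest to F10 (0.18), Lmo4 (0.20) and Vcam1 (0.21). Il18 was closest to Il21r, Cd74 and Arl5c (0.14 to 0.15), Il18bp to Nfxl1, Parp11 and Irf1 (0.12 to 0.13), and Il1r1 to Slc2a6, Uba7 and Eif2ak2 (0.10 to 0.11). Il1r2 was closest to Tnf, Cxcl16 and Gm16867 (0.16 to 0.18). The likeness rests on 6 means, and no test was made of it.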

How the data were processed

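The deposited table holds raw counts of reads per gene, with an exon length for each gene. Per the labels and methods, the authors trimmed reads with cutadapt 1.8.3, discarded ribosomal DNA reads, aligned to mm10 with HISAT2 2.1.0 and counted reads of mapping quality at least 50 on the reverse strand with featureCounts 1.5.3 against Gencode M15. Exons of Il1a, Il1b, Il18bp and Il1rap overlap genes of the opposite strand, which stranded counting keeps apart. Labels of the 3F columns are written 3′F here.

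Counts were filtered with filterByExpr of edgeR 4.0.16 (R 4.3.3) and scaled by TMM, with factors from 0.812 to 1.15. All 18 libraries entered 1 quasi-likelihood fit with a coefficient per group. The 11 comparisons were two-sided, and intervals are 95% intervals of the fit. P values rest on the spread between libraries within groups, estimated for each gene over all 6 groups together. Resting KO replicate 3 thus enters that spread also where groups with LPS are compared. The 3 libraries of a group are said to be separate cultures from 3 mice of each genotype. No pair of replicates agreed within sampling noise (chi-square per degree of freedom 6.95 to 109). The genotypes are not tied to a named batch. Alternatives were other size factors, no filter, a replicate block, the compared groups alone, DESeq2 1.42.0 and each library left out. A library was left out only for the comparisons that use its group. Chosen after seeing the data, a further alternative left out resting KO and 3′F replicates 3 together. The scripts were tested on simulated data.

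The members were named whatever they showed, other pathway genes from 4 fixed lists where called, and nearest genes by a distance rule among genes of average log2 CPM at least 1. Members and lists were chosen with earlier results of these data known. Gene positions and 3′ UTRs came from Gencode M21 of the same build, and promoter starts and miR-146a from RefSeq. The proteome data were not used here.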

Additional observations from a re-analysis of the deposited data

How the results depend on the processing

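No member changed direction under any alternative in a difference that passed the test. Of the 544 values of single members recomputed under the alternatives, 475 kept direction and call, 48 lost the call, 12 gained it and 9 changed sign. All 9 were small differences with LPS: Il1rn in KO against WT (0.0068 with the replicate block, and −0.37 to 0.28 with 1 library left out), Il1rn in 3′F against WT (0.049 with the block, and −0.33 to 0.31) and Il1a in 3′F against WT (−0.14 to 0.69, negative without 3′F LPS replicate 1). The number of members called between KO and WT with LPS was 2 without the filter and 2 with the compared groups alone, Il1b added. With the compared groups alone it was 0 for KO against WT at rest, 0 for KO against 3′F at rest and 6 for KO against 3′F with LPS. With resting KO and 3′F replicates 3 both left out, a choice made after seeing the data, 8 members were called for LPS in KO, 1 for KO against WT at rest and 1 for KO against 3′F at rest, Il18 in both. With 1 library left out at a time, the LPS response gave 6 to 8 calls in WT, 4 to 8 in KO (8 without resting KO replicate 3) and 6 to 8 in 3′F. KO against WT gave 0 to 4 at rest (0 without resting WT replicate 1 or 2 or KO replicate 3, 4 without KO replicate 1) and 0 to 1 with LPS (0 without WT replicate 2). KO against 3′F gave 1 to 3 at rest (1 without KO replicate 3 or any 3′F library) and 0 to 1 with LPS (0 without KO replicates 1 or 2 or 3′F replicates 2 or 3). DESeq2 called 3 members in KO against WT and 3 in KO against 3′F at rest, Il1r1 added. Resting and LPS libraries with the same replicate number within a genotype correlated at 0.028 to 0.318 (median 0.106), and 5 of 9 pairs passed 0.1. With different numbers the median was −0.059, and 1 of 18 pairs passed 0.1. The labels do not say that a number marks 1 mouse. The main fit does not pair the samples, and so may ignore a pairing. With the replicate block the LPS response gave 8 calls in WT, 5 in KO and 7 in 3′F, and the other counts did not change. Depth limits Il1r2, Il1a at rest and Il33 most, the last at 3 counts or fewer in every library.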
